A study of Sus scrofa with 16 samples.

Results

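The oxidative phosphorylation genes were taken by name from the feature list of a droplet RNA sequencing study of pig small intestine. A feature was a member when its symbol began with NDUFA, NDUFB, NDUFC, NDUFS, NDUFV, SDH, UQCR, COX4 to COX8 or ATP5, or when it was 1 of the 13 protein genes of the mitochondrial genome. This gave 88 of 25880 features, of which 75 are encoded in the nucleus and 13 in the mitochondrion. By complex, 36 nuclear members belong to complex I, 5 to complex II, 4 to complex III, 17 to complex IV and 13 to complex V, and these include 11 assembly factors and the inhibitor ATP5IF1. In the 6928 final cells COX7B2 and COX8H had 0 UMIs (unique molecular identifiers, each counting 1 captured transcript) and were not measured, and COX6B2 had 17.

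Oxidative phosphorylation runs in the inner mitochondrial membrane. Complexes I and II take electrons from NADH and succinate, complex III passes them to cytochrome c, complex IV hands them to oxygen, and complex V (ATP synthase) makes ATP with the proton gradient that complexes I, III and IV build. Complex II is made of nuclear-encoded subunits alone, while the other complexes mix nuclear subunits with subunits translated inside the mitochondrion, so both genomes must be expressed to build them. Absorptive enterocytes spend ATP on sodium pumping and nutrient transport and are known for abundant mitochondria.

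The samples were epithelium-enriched cells of 7.5-week-old female pigs of mixed breed, freed with DTT and EDTA and cleaned on Percoll, with no treatment or genotype named. DUOD was duodenum next to the pylorus, JEJ was jejunum, IPP was ileum bearing Peyer's patches (gut-wall lymphoid follicles), and NoPP was ileum from areas lacking them. The labels list 4 titles per region, but the counts of a region sit in 1 matrix whose barcodes do not separate them, so each region was 1 sample here and was named a library. Pigs or tissue pieces are thus pooled within a library. Poly-A RNA was captured at its 3′ end, so a gene's UMIs do not scale with its length. Capture and mapping may still differ between genes, which was not tested. Where different genes are set side by side below, as for the most abundant nuclear-encoded transcript of a complex, the order is that of their UMIs.

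The libraries held 44726845 to 91813234 UMIs. Barcodes with at least 1000 UMIs and 500 genes numbered 3123 to 4831 per library, and the limit of 25% mitochondrial UMIs removed 77.2%, 68.9%, 32.3% and 29.4% of them in DUOD, JEJ, IPP and NoPP. The mitochondrial share of the kept cells is therefore capped by the filter, and the cells left over the cap differ between libraries. After 121 NoPP barcodes shared with richer barcodes of other libraries and the called doublets were left out, 714, 978, 3187 and 2049 cells remained in DUOD, JEJ, IPP and NoPP, and 1 to 5 of a library's final barcodes also occurred in another library. Cells were clustered without any member gene and named from marker genes, written with the suffix "-like". The enterocyte markers summed to between 60100 and 116700 CPM (UMIs scaled to a common total) in enterocyte-like cells and to between 280 and 1008 CPM in T or innate lymphoid-like cells, and the T cell markers to 54.8 to 505 CPM in enterocyte-like cells with CD8B and CD4 at 0. All intervals below are 95% and cover counting error only, and CPM of a nuclear member is scaled to the nuclear-encoded UMIs of the class in that library.

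Among the cell classes present in all 4 libraries, enterocyte-like cells held the highest nuclear share in each. Nuclear members made up 2.48%, 3.18%, 2.25% and 2.53% of nuclear-encoded UMIs in DUOD, JEJ, IPP and NoPP (mean 2.61% ± 0.40, SD, n = 4 libraries, 161, 211, 153 and 25 cells). T or innate lymphoid-like cells held 1.76%, 1.74%, 1.74% and 1.70% in the same order (1.74% ± 0.025, SD, n = 4, 175 to 1683 cells). The lowest enterocyte-like value lay above the highest lymphoid one, and the spread between regions was wide in enterocyte-like cells and narrow in lymphoid cells. Enteroendocrine-like cells, the hormone-secreting cells of the gut lining, held 1.29%, 2.10%, 1.86% and 1.73% (1.74% ± 0.34, SD, n = 4, 21 to 46 cells). Their range enclosed the lymphoid values and stayed below the enterocyte-like ones.

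Classes found in fewer libraries lay on both sides of the lymphoid level. B-like cells held 1.61% in JEJ (10 cells), below it, and 1.79% in IPP and 1.83% in NoPP, above it. Goblet-like cells, which secrete mucus, held 1.15% in JEJ, 1.37% in IPP and 1.26% in NoPP. Antibody-secreting-like cells of IPP held 1.21%, BEST4 enterocyte-like cells of JEJ 1.41%, and myeloid-like cells 1.50% in IPP and 1.31% in NoPP. Stromal or endothelial-like cells did not give 1 level: 12 DUOD cells held 1.19% and 81 IPP cells 2.35%. An unnamed epithelial cluster of 53 DUOD cells, led by the red cell gene HBB, held 2.93%, more than the enterocyte-like cells of that library.

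The mitochondrial members ranked the classes in another order. Their share of all UMIs was 15.03%, 14.0%, 17.7% and 15.7% in DUOD, JEJ, IPP and NoPP in enterocyte-like cells (15.6% ± 1.6, SD, n = 4). In T or innate lymphoid-like cells it was 10.7%, 9.83%, 11.3% and 11.6%, and in enteroendocrine-like cells 5.90%, 6.55%, 11.0% and 8.41%. In these pooled UMIs enterocyte-like cells were again highest in every library. In JEJ that order held for the pooled UMIs only: as a mean over cells the mitochondrial share there was 9.13% in enterocyte-like, 10.03% in lymphoid, 12.96% in goblet-like and 12.1% in BEST4 enterocyte-like cells. Enteroendocrine-like cells lay under the lymphoid cells of their own library in all 4, while their nuclear share did so in DUOD alone. Goblet-like cells paired one of the lowest nuclear shares with a mitochondrial share of 10.5 to 11.7%, near the lymphoid values, and IPP stromal or endothelial-like cells paired a nuclear share of 2.35% with a mitochondrial share of 4.24%.

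**Figure D1:**
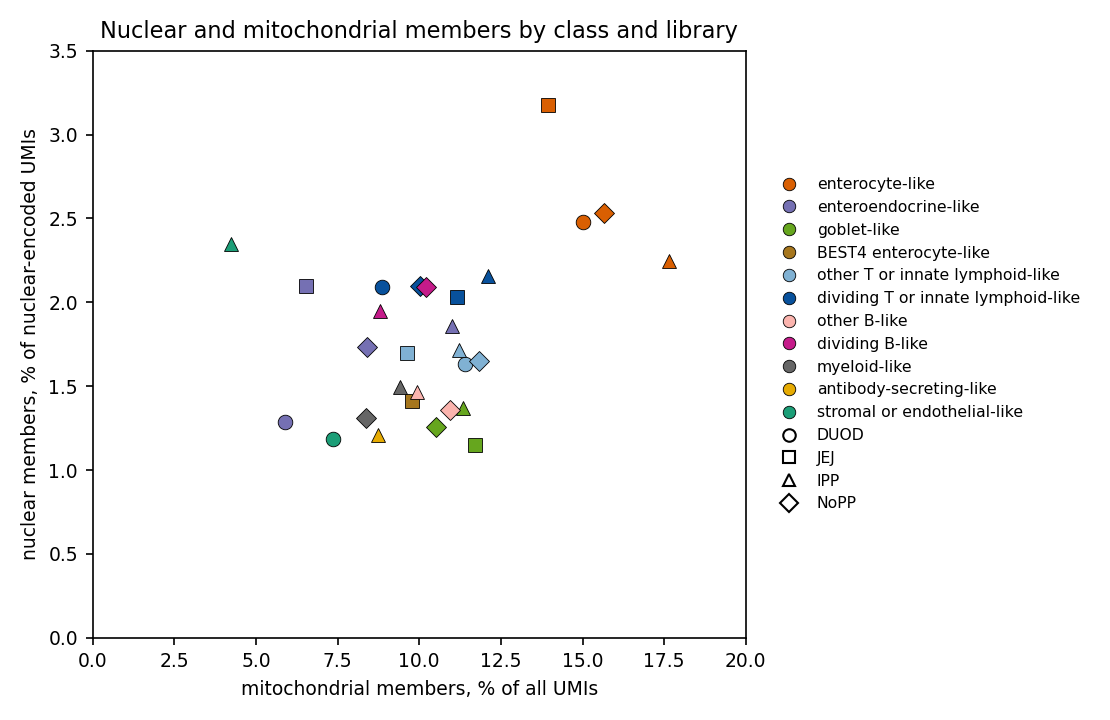
Nuclear members as percent of nuclear-encoded UMIs (vertical axis) against mitochondrial members as percent of all UMIs (horizontal axis), 1 point per named cell class and library with at least 10 cells, with B-like and T or innate lymphoid-like cells split into dividing and other, and without unnamed and left-out clusters; colour gives the class and shape the library. The 4 enterocyte-like points lie at the upper right, between 2.25% and 3.18% nuclear and between 14.0% and 17.7% mitochondrial, and every other point drawn lies at or below 2.35% nuclear and 12.1% mitochondrial.

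The jejunal enterocyte-like level was close in cells that differed in mitochondrial content. JEJ held 2 enterocyte-like clusters. In 106 cells with a median of 35370.5 UMIs the nuclear share was 3.20% (3.18 to 3.22%) and the mitochondrial share 15.2%. In 104 cells with a median of 2468 UMIs the nuclear share was 3.01% (2.95 to 3.07%) and the mitochondrial share 2.58%. Both JEJ clusters lay above the DUOD, IPP and NoPP enterocyte-like cells in the nuclear share, while their mitochondrial shares, 15.2% and 2.58%, lay far apart.

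Among the nuclear members alone, the most abundant transcript of each complex was often the same gene in different classes. In complexes I, III, IV and V a mitochondrial member had more UMIs over the final cells, as COX3 with 1203925 against COX4I1 with 58336. NDUFA13, a small subunit of complex I, led that complex in enterocyte-like cells at 489 CPM ± 87 (SD, n = 4) and in lymphoid cells at 429 CPM, and NDUFB4 led it in enteroendocrine-like cells at 625 CPM ± 255. Complex III was led by UQCR10 in enterocyte-like cells (355 CPM ± 99) and lymphoid cells (187 CPM), and by UQCRQ in enteroendocrine-like cells (238 CPM). COX4I1 led complex IV in these classes with 1858 CPM ± 166, 1473 CPM ± 99 and 1058 CPM ± 239, and ATP5F1E led complex V with 1340, 1281 and 1135 CPM. SDHB led complex II in enterocyte-like and enteroendocrine-like cells, at 286 and 125 CPM, and SDHD in lymphoid cells, at 126 CPM. In dividing T or innate lymphoid-like cells COX8A (1366 CPM ± 153) stood level with COX4I1 (1340.0 CPM).

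Gene by gene, enterocyte-like cells exceeded T or innate lymphoid-like cells in most subunits of every complex. UMIs were summed per library and class and tested with edgeR's quasi-likelihood test (libraries as blocks, Benjamini-Hochberg adjustment over 9389 tested features, threshold 0.05). Of 70 tested nuclear members 54 were higher and 2 lower, against 31.4% higher and 33.0% lower of all tested features, with a median log2 fold change of 1.12 against -0.11 over all features. Complex I had 25 of 35 higher, complex II 3 of 5, complex III 4 of 4, complex IV 10 of 13 and complex V 12 of 13. All 50 subunits that passed were higher, out of 56 tested, and the other 6 did not pass. The 10 tested assembly factors stood apart from the subunits in these counts, with 2 higher, 1 lower and a median of -0.14. In plain CPM 6 of these 10 were lower and 2 higher with no overlap between the classes. In these fits the 4 libraries are different regions, so the error is the spread between regions. By plain CPM 43 of the 54 were higher with no overlap between the classes. In the other direction 9 of the 70 tested members were lower with no overlap. Over all 9389 tested features 2085 were higher and 4226 lower with no overlap.

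The largest differences were in complex IV and complex V. COX7A1, the muscle-type isoform of a complex IV subunit, had 24.8, 83.4, 106 and 135 CPM in enterocyte-like cells of DUOD, JEJ, IPP and NoPP, and 12.4, 16.1, 17.2 and 14.6 CPM in lymphoid cells. Every enterocyte-like value exceeded every lymphoid value (log2 fold change 3.00, SE 0.33, edgeR adjusted p = 4.4e-05). COX7A1 in barcodes under 100 UMIs, which hold free RNA, was at 26.3, 59.1, 62.9 and 32.2 CPM, so the lymphoid level and the DUOD enterocyte-like level were under that of free RNA. COX7A2, its widely expressed counterpart, had 824, 918, 1109 and 1167 CPM against 375, 322, 324 and 344 CPM, again with no overlap (2.08, SE 0.21, edgeR adjusted p = 2.9e-05). COX7A2 thus had most of the COX7A UMIs in both classes, and COX7A1 made up 2.92 to 10.4% of them in enterocyte-like cells and 3.19 to 5.04% in lymphoid cells. COX7A2 in free RNA was at 405, 544, 628 and 425 CPM, above the lymphoid and below the enterocyte-like level of each library.

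Complex II, the one complex with no mitochondrial subunit, differed strongly in its membrane anchor and iron-sulfur parts. SDHB, the iron-sulfur subunit, had 231, 322, 264 and 327 CPM in enterocyte-like cells and 137, 116, 110 and 101 CPM in lymphoid cells (log2 fold change 1.83, SE 0.22, edgeR adjusted p = 8.9e-05). SDHC, a membrane anchor, had 280, 348, 121 and 169 CPM against 88.0, 107, 92.9 and 71.4 CPM (1.78, SE 0.27, edgeR adjusted p = 0.0004). Both genes kept the classes apart, although the SDHC values of the ileal libraries were close to the lymphoid range. As a sum, complex II also had the highest mean ratio of the complexes, at 0.95 ± 0.30 (log2, SD, n = 4) against 0.43 ± 0.26 for complex I, 0.77 ± 0.33 for III, 0.64 ± 0.13 for IV and 0.54 ± 0.27 for V. These ranges overlap between complexes.

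Further members among the 10 largest changes came from complexes I, IV and V. NDUFB2, an accessory subunit of the membrane arm of complex I, and NDUFV2, part of its NADH-oxidising end, rose by 1.73 and 1.72 on the log2 scale. COX7B of complex IV rose by 1.69 and ATP5ME, a membrane subunit of ATP synthase, by 1.69. ATP5IF1, which blocks ATP synthase from running backwards, had 528, 714, 578 and 605 CPM in enterocyte-like cells against 249, 279, 285 and 284 CPM in lymphoid cells (1.67, SE 0.20, edgeR adjusted p = 7.8e-05). COX4I1, the most abundant nuclear member of complex IV in enterocyte-like cells, rose by 0.87, and COX6A1 by 1.31. All of these were higher in 4 of 4 libraries.

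Of the 54 members called higher, 46 were higher in 4 of 4 libraries by plain CPM. The weakest calls were among those that did not hold in every library. NDUFA1, ATP5F1E and ATP5PO passed with log2 fold changes of 0.55, 0.59 and 0.64, yet by plain CPM they were higher in 1, 2 and 2 of 4 libraries. ATP5F1E encodes the epsilon subunit and was the most abundant nuclear member of complex V in both classes. It had 1512, 1463, 1094 and 1289 CPM in enterocyte-like cells and 1116, 1337, 1296 and 1375 CPM in lymphoid cells, which overlap. The calls for such genes rest on the TMM scaling, which moved the median of all features by 0.61 (log2): without it the median was -0.71, 31 nuclear members were higher and 9 lower, and 31.8% of all called features were higher instead of 48.7%. Without that scaling the log2 fold changes of NDUFA1 and ATP5F1E were -0.06 and -0.01. On plain shares of nuclear-encoded UMIs the sum of all nuclear members was higher by 0.58 ± 0.21 (log2, SD, n = 4), positive in 4 of 4 libraries.

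Assembly factors and NDUFA4L2 gave the exceptions. NDUFAF1, needed to build complex I, rose by 0.85, and COX7A2L, which joins complexes III and IV into supercomplexes, by 0.99. NDUFAF2, another complex I assembly factor, had 6.42, 10.5, 6.61 and 5.11 CPM in enterocyte-like cells and 23.2, 25.1, 15.02 and 24.6 CPM in lymphoid cells (log2 fold change -0.97, SE 0.29, edgeR adjusted p = 0.017). NDUFA4L2, a relative of a complex IV subunit known to be induced by low oxygen elsewhere, had 0 UMIs in all 550 enterocyte-like cells and 146 in 3750 lymphoid cells (6.18, 8.99, 10.9 and 12.7 CPM). A count of 0 allows up to 3 UMIs per library, or 0.688, 0.958, 1.42 and 7.66 CPM in enterocyte-like cells in the same order, below the lymphoid level in each (edgeR adjusted p = 0.0011). B-like cells of IPP also had it, with 14.3 CPM, and free RNA held 0 to 4.27 CPM.

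**Figure D2:**
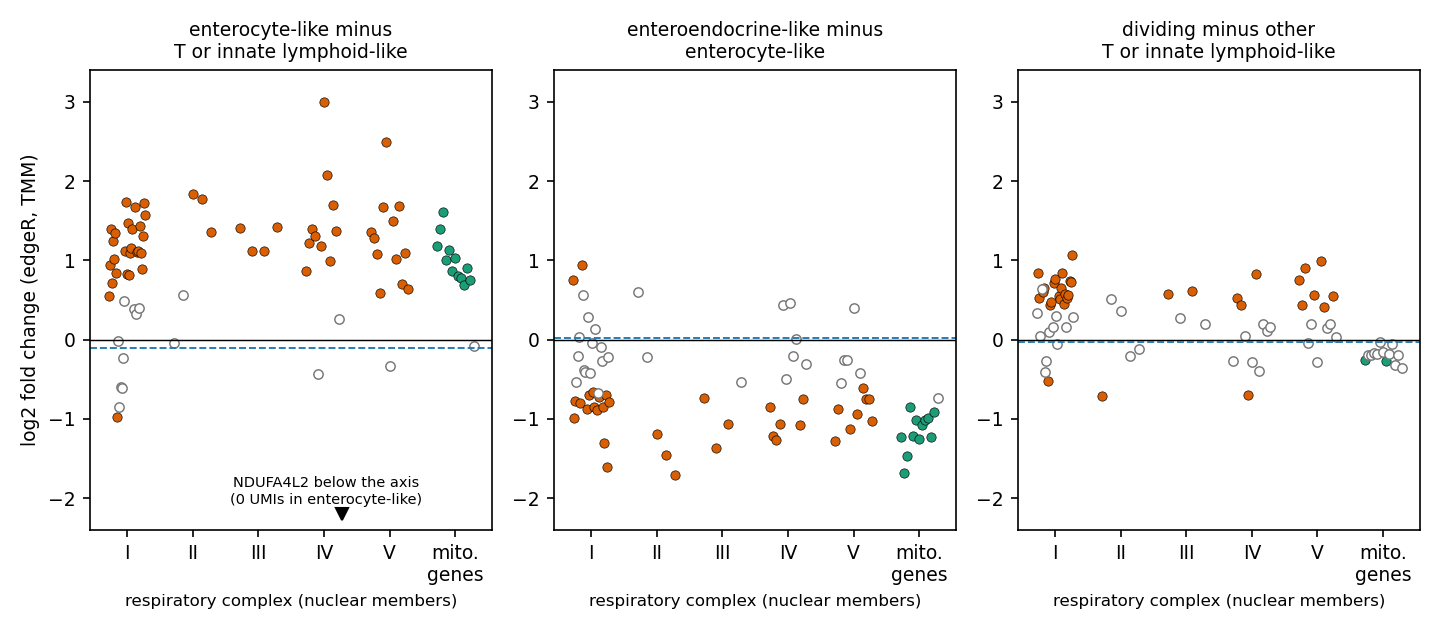
Log2 fold changes of the tested members (edgeR, TMM scaling) in the 3 class comparisons, grouped by complex, with the mitochondrial genes last. Filled points passed an adjusted p of 0.05, open points did not, the dashed line is the median of all tested features, and a triangle marks a gene below the axis; nearly all points lie above the dashed line in the enterocyte-like panel, most lie below it in the enteroendocrine-like panel, and in the panel of dividing cells the nuclear points rise while the mitochondrial ones do not.

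The transcripts for subunit c of ATP synthase were split among 3 genes in different proportions in the 2 classes. ATP5MC1, ATP5MC2 and ATP5MC3 encode the same mature subunit c with different import peptides. ATP5MC1 had 631, 1072, 551 and 817 CPM in enterocyte-like cells of DUOD, JEJ, IPP and NoPP and 227, 177, 180 and 183 CPM in lymphoid cells, with no overlap (log2 fold change 2.50, SE 0.25, edgeR adjusted p = 2.8e-05). In free RNA ATP5MC1 was at 294, 611, 370 and 247 CPM, above the lymphoid and below the enterocyte-like level of each library. ATP5MC2 in free RNA was at 124, 213, 281 and 208 CPM. What part free RNA has in these levels was not tested. ATP5MC3 rose by 1.49 (SE 0.27, edgeR adjusted p = 0.0010). ATP5MC2 had 181, 271, 129 and 214 CPM in enterocyte-like cells and 386, 357, 342 and 321 CPM in lymphoid cells, lower in 4 of 4 libraries, although its log2 fold change of -0.33 did not pass (edgeR adjusted p = 0.24).

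As shares of the 3 genes' UMIs the classes differed in every library. ATP5MC1 gave 56.1%, 56.1%, 58.9% and 57.0% in enterocyte-like cells and 27.3%, 25.1%, 25.1% and 26.9% in lymphoid cells. ATP5MC2 gave 13.8 to 16.1% in enterocyte-like and 46.4 to 50.7% in lymphoid cells. The ATP5MC1 and ATP5MC2 ranges lie far apart and the libraries of a class differ by a few percentage points. ATP5MC3 gave 27.4 to 29.7% in enterocyte-like and 24.2 to 27.2% in lymphoid cells. Goblet-like cells leaned to ATP5MC1 as well, with 56.7% in JEJ, 50.8% in IPP and 45.8% in NoPP, and enteroendocrine-like cells held 39.7 to 49.7% ATP5MC1 and 22.5 to 36.3% ATP5MC2. Free RNA itself held more ATP5MC1 than ATP5MC2 in each library. The goblet-like ATP5MC1 level was under that of free RNA in JEJ (372 CPM) and IPP (334 CPM) and above it in NoPP (293 CPM).

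**Figure D3:**
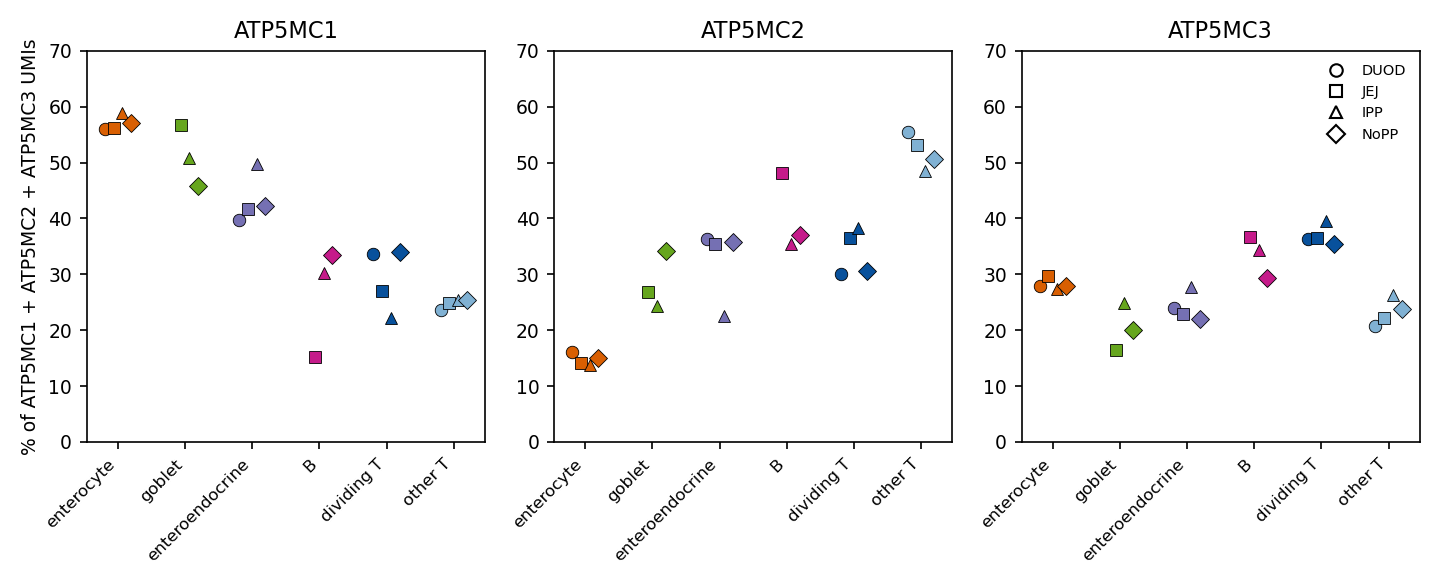
Share of each subunit c gene in the summed UMIs of ATP5MC1, ATP5MC2 and ATP5MC3 (percent, vertical axis), by cell class, 1 point per library. ATP5MC1 leads in enterocyte-like cells at 56.1% to 58.9%, ATP5MC2 in non-dividing T or innate lymphoid-like cells at 48.4% to 55.5%, and in dividing ones ATP5MC3 is the first or joint first at 35.4% to 39.5%; the JEJ point of B-like cells rests on 79 UMIs.

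All but 1 of the mitochondrial genes were also higher in enterocyte-like than in lymphoid cells. Of 13, 12 rose (31.4% of all tested features were higher), with a median log2 fold change of 0.90. COX1, the catalytic subunit of complex IV, led with 1.62, followed by ATP8 with 1.39, ATP6 with 1.18, COX3 with 1.13, ND1 with 1.03, COX2 with 1.01, ND4L with 0.90, CYTB with 0.86, ND2 with 0.80, ND3 with 0.78, ND5 with 0.75 and ND4 with 0.69. ND6, the one gene on the other strand of the mitochondrial genome, had -0.08 (edgeR adjusted p = 0.76). Of the 12 rising genes 11 were higher in 4 of 4 libraries by plain CPM, but the values of the classes did not overlap for 6 only. Over all 9389 tested features 2085 were higher with no overlap. Without TMM scaling 4 mitochondrial genes were higher and 1 lower.

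The mitochondrial difference depended on where the mitochondrial limit was drawn, and the nuclear one did so much less. With a limit of 10% in place of 25%, 0 mitochondrial genes were higher and 8 lower, and the mean log2 ratio of the mitochondrial share, 0.52 ± 0.09 (SD, n = 4) at 25%, was -1.11. The same stricter limit kept 48 of the 54 nuclear members higher. It leaves 10 to 101 enterocyte-like cells per library, and by its construction takes more from the class with more mitochondrial UMIs.

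Within the mitochondrial UMIs, the proportions of the genes differed between these classes. COX1 took 22.1% ± 1.5 of them in enterocyte-like cells (SD, n = 4, 20.3 to 23.9%), 15.8% ± 0.77 in T or innate lymphoid-like cells (15.2 to 16.9%) and 17.7% ± 0.73 in enteroendocrine-like cells. The enterocyte-like and lymphoid ranges did not overlap. Of these 3 classes COX2 was highest in enteroendocrine-like cells, at 24.8% ± 0.44 (24.4 to 25.3%), against 20.1% in enterocyte-like and 22.0% in lymphoid cells. ND4 took 3.34% in enterocyte-like cells (3.15 to 3.85%) and 4.54% in lymphoid cells (4.45 to 4.75%), and ND2 3.75% against 4.70%. ND6 took 0.051 to 0.113% in enterocyte-like and 0.119 to 0.187% in lymphoid cells. Other classes came within these ranges, with COX1 at 22.4% in BEST4 enterocyte-like cells of JEJ and COX2 at 24.5% in myeloid-like cells of NoPP. These proportions compare genes within 1 pool of UMIs, so a larger COX1 share lowers the others.

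**Figure D4:**
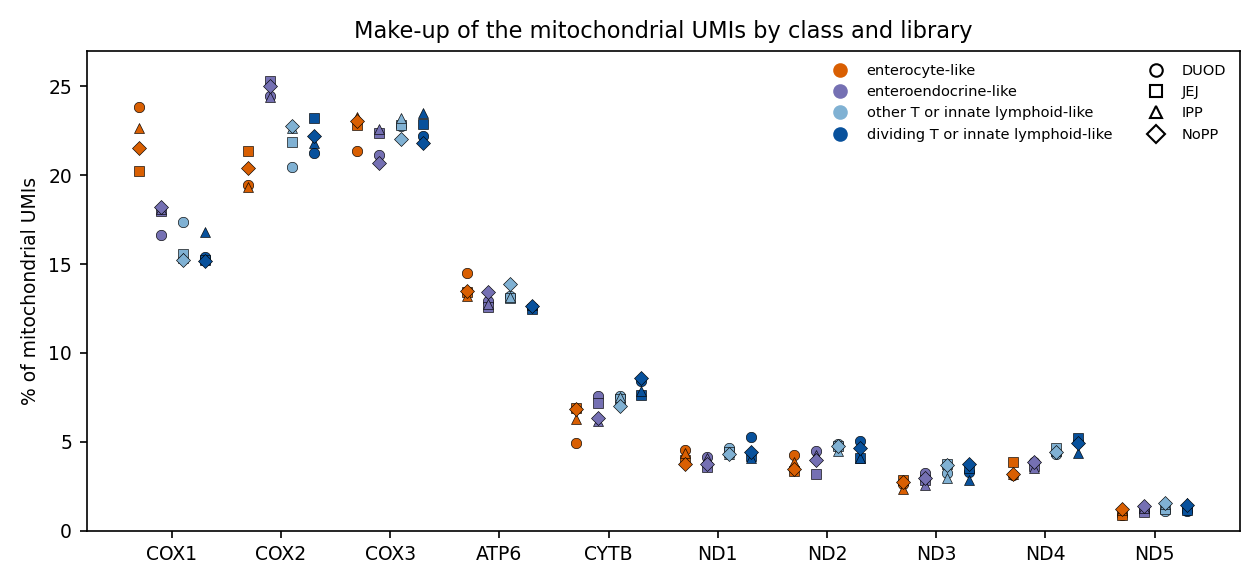
Share of the mitochondrial UMIs taken by each of 10 mitochondrial genes (percent, vertical axis), by class (colour) and library (shape). Of the 4 groups plotted, enterocyte-like cells have the largest COX1 shares, between 20.3% and 23.9%, and enteroendocrine-like cells the largest COX2 shares, between 24.4% and 25.3%.

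Against enterocyte-like cells, enteroendocrine-like cells had less of nearly every member that passed. Of 64 tested nuclear members 34 were lower and 2 higher (edgeR, Benjamini-Hochberg adjustment over 5546 features), against 21.1% lower and 19.0% higher of all tested features, with medians of -0.69 for members and 0.02 for all. All 34 were lower in 4 of 4 libraries by plain CPM, and for 27 the classes did not overlap. Over all 5546 tested features 950 were lower with no overlap, where 1170 were called lower. Of the 13 mitochondrial genes 12 were lower, with a median of -1.08. Leaving out JEJ or NoPP brought the nuclear members called lower to 16 in each case, all 16 among the 34, and no TMM scaling brought them to 15, all among the 34. That scaling also moved the share of higher among all called features from 58.3% without it to 47.4% with it, and the median of all features from 0.19 to 0.02.

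The deepest reductions were in complexes I to III. SDHD, a membrane anchor of complex II, had 36.1, 69.0, 109 and 82.2 CPM in enteroendocrine-like cells of DUOD, JEJ, IPP and NoPP and 202, 260, 199 and 235 CPM in enterocyte-like cells (log2 fold change -1.71, SE 0.25, edgeR adjusted p = 0.0016). NDUFV1, the NADH-binding subunit of complex I, had 44.5, 44.8, 76.6 and 44.6 CPM against 129, 226, 128 and 171 CPM (-1.61, SE 0.31, edgeR adjusted p = 0.0048). Neither gene overlapped between the classes. SDHC fell by 1.46 on the log2 scale, UQCRC1, a core protein of complex III, by 1.37, and NDUFS7, an iron-sulfur subunit of complex I, by 1.30. At the other end ATP5ME fell by 0.61, NDUFB9 by 0.67, NDUFS8 by 0.69, NDUFB6 by 0.70, NDUFS3 by 0.72, UQCR10 by 0.74, and COX7C and ATP5PF by 0.75 each.

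Both members that were higher in enteroendocrine-like cells act in complex I. NDUFAF3, an assembly factor, had 83.1, 117, 109 and 77.5 CPM against 48.2, 55.9, 46.8 and 48.5 CPM in enterocyte-like cells (log2 fold change 0.94, SE 0.21, edgeR adjusted p = 0.011). NDUFA1, a small membrane subunit, had 172, 272, 326 and 359 CPM against 147, 190, 144 and 161 CPM (0.75, SE 0.21, edgeR adjusted p = 0.026). NDUFAF3 separated the classes, while the DUOD value of NDUFA1 lay within the enterocyte-like range. Isoform genes split: COX4I1 (-0.86), COX6A1 (-1.06), COX7B (-1.08), ATP5MC1 (-1.12) and ATP5MC3 (-0.94) fell, whereas COX7A2 (-0.20) and COX7A1 (0.47) did not pass.

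COX4I2, the alternative form of subunit 4 of complex IV known from lung and oxygen-sensing cells, was found almost wholly in enteroendocrine-like cells. It is named by the isoform rule and was too low for the fit. Of its 136 UMIs in the final cells, 129 (94.9%) were in the 144 enteroendocrine-like cells. The 550 enterocyte-like cells held 2, the 3750 lymphoid cells 1 and the 1168 B-like cells 0. Its level was 105, 82.8, 32.1 and 11.7 CPM in DUOD, JEJ, IPP and NoPP, with a UMI in 24 of 46, 7 of 21, 5 of 34 and 3 of 43 cells. It was high in the upper gut libraries and low in the ileal ones. COX4I2 in free RNA was at 5.26, 2.48, 0.28 and 0.33 CPM. Among the enteroendocrine-like clusters, the one led by SST, CCK and GHRL held 108 CPM in DUOD, 134 in JEJ and 32.3 in NoPP, the one with PENK held 62.7 CPM in IPP and 8.46 in NoPP, and the one led by ileal hormones such as GCG and PYY held 0 in both ileal libraries.

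The enteroendocrine-like levels moved with hormone load and with cluster. The hormone and secretory markers took 456000, 214300, 244100 and 245000 CPM of the class in DUOD, JEJ, IPP and NoPP, and the 10 highest genes took 50.1%, 30.4%, 36.3% and 33.5% of its nuclear-encoded UMIs. DUOD had both the largest hormone load and the lowest nuclear share. With ribosomal protein genes and the 10 highest genes of each class left out of the total, the mean log2 ratio of the nuclear share to enterocyte-like cells was -0.38 in place of -0.59 ± 0.28 (SD, n = 4). Different clusters fill the class by region. The PENK cluster held 2.45% nuclear members in IPP and 2.34% in NoPP, within the enterocyte-like range, whereas the GCG and PYY cluster held 1.21% and 1.73%, and the SST, CCK and GHRL cluster 1.15 to 1.66%. Without ribosomal genes and the 10 highest, the PENK cluster had 3.30% and 3.09% and the GCG and PYY cluster 3.11% and 3.20%, so their order was no longer the same in both libraries. What part the hormone transcripts have in the gene-level differences was not tested.

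The mitochondrial genes were reduced in enteroendocrine-like cells by larger amounts than most nuclear members. ATP8 fell by 1.68 on the log2 scale, COX1 by 1.47, ND1 by 1.25, ATP6 and ND4L by 1.23, COX3 by 1.21, ND2 by 1.08, CYTB and ND3 by 1.01, ND4 by 0.99, ND5 by 0.91 and COX2 by 0.85. Each was lower in 4 of 4 libraries, and the classes overlapped for ND5 alone of these 12. Over all 5546 tested features 950 were lower with no overlap. ND6, at -0.74, did not pass (edgeR adjusted p = 0.052). With a mitochondrial limit of 10%, 0 of these genes were lower and 3 were higher.

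Dividing T or innate lymphoid-like cells, set apart by cell cycle genes, held a larger nuclear share than the other cells of their class in all 4 libraries. Their mitochondrial share was larger in 2 libraries only. These are shares of UMIs and do not give transcripts per cell. Their nuclear share was 2.09%, 2.03%, 2.16% and 2.10% in DUOD, JEJ, IPP and NoPP (2.09% ± 0.050, SD, n = 4, 23, 29, 43 and 73 cells), against 1.63%, 1.70%, 1.71% and 1.65% in the rest. The groups did not overlap and the mean ratio was 1.25-fold. Their mitochondrial share was 8.87%, 11.2%, 12.1% and 10.0% against 11.4%, 9.63%, 11.2% and 11.8%, higher in 2 libraries and lower in the other two. Dividing markers summed to 4876 to 6181 CPM in the dividing cells and to 153 to 210 CPM in the rest, and dividing cells had median depths of 5462 to 7694 UMIs against 3375 to 4072.

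Of 64 tested nuclear members 31 were higher in dividing cells and 3 lower (edgeR, Benjamini-Hochberg adjustment over 5795 features), against 17.5% higher and 14.5% lower of all tested features, with medians of 0.42 and -0.03. All 31 were higher in 4 of 4 libraries by plain CPM, and 30 did not overlap. With no overlap 37 of the 64 were higher and 1 lower, against 1066 higher and 531 lower of all 5795 features. Of the 31 called higher, complex I gave 19 of its 28 tested subunits, complex V 7 of 13 members, complex IV 3 of 11 and complex III 2 of 4. Complex II gave 0 higher and 1 lower of 5, and as a sum its ratio was 0.06 ± 0.19 (log2, SD, n = 4) where complex I had 0.48 ± 0.08. Leaving out NoPP, which has the most dividing cells, left 14 higher, all among the 31, and DESeq2 called 24 higher, also all among them, and 0 lower. Of all called features 54.7% were higher with TMM scaling and 65.6% without it, where 35 nuclear members were higher and 0 lower.

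NDUFV2 and ATP5MC3 had the largest increases among the members. NDUFV2 had 181, 142, 120 and 171 CPM in dividing cells of DUOD, JEJ, IPP and NoPP and 58.0, 64.3, 73.3 and 70.3 CPM in the rest (log2 fold change 1.07, SE 0.18, edgeR adjusted p = 2.3e-05). ATP5MC3 had 384, 284, 354 and 352 CPM against 155, 153, 186 and 152 CPM (0.99, SE 0.14, edgeR adjusted p = 1.9e-06). Every dividing value exceeded every other value for both genes. COX7A2 had 631, 514, 530 and 608 CPM against 275, 294, 312 and 309 CPM (0.83, SE 0.13, edgeR adjusted p = 5.6e-06). Its level in the rest was under that of free RNA in each library, and its level in dividing cells in JEJ and IPP. ATP5F1D and ATP5F1A, the delta and alpha subunits of the catalytic part of ATP synthase, rose by 0.90 and 0.75. In complex I, NDUFA10 rose by 0.84, NDUFB7 by 0.77, NDUFS8 by 0.74 and NDUFV1 by 0.73, and the weakest calls were NDUFB11 with 0.43 and ATP5MD, a small subunit of ATP synthase, with 0.41.

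Within subunit c the dividing cells had a smaller share of ATP5MC2 and a larger one of ATP5MC3 in every library. ATP5MC3 made up 36.3%, 36.5%, 39.5% and 35.4% of the 3 genes' UMIs in dividing cells and 20.8%, 22.1%, 26.3% and 23.8% in the rest. ATP5MC2 made up 30.1%, 36.5%, 38.3% and 30.6% against 55.5%, 53.1%, 48.4% and 50.7%. ATP5MC1 rose by 0.57 on the log2 scale (SE 0.16, edgeR adjusted p = 0.0080), with 357, 211, 198 and 338 CPM against 176, 172, 179 and 162 CPM. The ATP5MC1 level in the rest was under that of free RNA in each library, and the level in dividing cells in JEJ and IPP.

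The 3 nuclear members that were lower in dividing cells were a muscle-type isoform and assembly factors. COX6A2, the muscle-type form of a complex IV subunit, had 38.4, 34.3, 21.2 and 42.2 CPM in dividing cells and 51.6, 54.0, 59.3 and 50.8 CPM in the rest (log2 fold change -0.70, SE 0.26, edgeR adjusted p = 0.037). SDHAF1, which helps assemble complex II, and NDUFAF8, which helps assemble complex I, fell by 0.71 and 0.53. These 3 calls were absent from DESeq2 and from the fit without TMM scaling. Of the mitochondrial genes, 0 rose, and ND2 (-0.26, edgeR adjusted p = 0.035) and ATP6 (-0.26, edgeR adjusted p = 0.0495) passed as lower. By plain CPM these were lower in 3 and 2 of 4 libraries, and DESeq2 called neither.

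The ribosomal protein genes moved the other way, which changes the total against which shares are taken. They held 13.3 to 16.0% of nuclear-encoded UMIs in dividing cells and 18.4 to 22.2% in the rest. With them and the 10 highest genes left out, the mean log2 ratio of the nuclear share was 0.22 in place of 0.32 ± 0.05 (SD, n = 4), and with cells of at least 2000 UMIs it was 0.27.

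B-like cells, abundant in IPP alone, gave the same comparison in another lineage, with 1 library and no test. Their 502 dividing cells held 1.95% nuclear and 8.79% mitochondrial members, and the 599 others 1.47% and 9.93%. By cluster the nuclear share was 1.67 to 2.40% in the dividing cells of IPP and 1.14 to 1.65% in the others. The highest value came from 45 cells with a median of 35533 UMIs. The lowest and highest dividing values were those of clusters led by RNF121 and FABP5. These had 9 and 10 dividing markers detected but 0 among their 10 leading genes. The dividing clusters led by UNG and CENPF held 1.96% and 1.76%. In NoPP 25 dividing cells held 2.09% and 31 others 1.36%. Of 60 members measured in IPP, 7 were at least 2-fold higher in dividing cells and 0 lower, against 13.2% and 5.49% of 3132 features. The 7 were NDUFV2 (2.99-fold, 2.53 to 3.54), NDUFS1 (2.53), NDUFA9 (2.34), NDUFB6 (2.22), NDUFA8 (2.10), ATP5MC3 (2.09) and UQCR10 (2.08). Although 7 of 60 is near the background share, 53 of the 60 had a ratio above 1, and their median log2 ratio was 0.52 against 0.18 over all features. NDUFV2 and ATP5MC3 thus rose in IPP B-like cells as values with counting error only.

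Non-dividing lymphoid clusters differed as well. The GNLY and GZMA cluster of cytotoxic cells held 1.84% nuclear members in DUOD, JEJ and NoPP and 1.89% in IPP, and the CD8B and CD8A cluster 1.52 to 1.69%. The TAC3 and IL22 cluster held 1.44 to 1.55%, and the CCR7 and KLF2 cluster 1.35% in IPP and 1.33% in NoPP. The order of the GNLY cluster over the TAC3 cluster held in all 4 libraries.

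Between regions, enterocyte-like cells of the jejunum had the most of most members. Regions were single libraries, so ratios have counting intervals and no test, and a nuclear member was compared when it reached 50 CPM in 1 of the regions. From DUOD to JEJ 55 of 60 members had a ratio above 1, with a median log2 ratio of 0.44 against 0.03 over 2811 features. Past 2-fold were COX7A1 (3.37-fold, 2.68 to 4.25) and UQCRC1 (177 and 378 CPM, 2.14-fold, 1.95 to 2.35), while 0 were lower, against 10.3% and 11.6% of all features. From JEJ to NoPP 3 of 60 had a ratio above 1 and the median was -0.38 against -0.14 over 2858 features. SDHC alone fell past 2-fold (1088 and 66 UMIs, ratio 0.49, 0.37 to 0.62) and 0 rose, against 12.9% and 10.5%. Between the ileal libraries, IPP against NoPP, 9 of 58 were above 1, the median was -0.22 against -0.04, and 0 passed 2-fold against 2.63% higher and 2.59% lower. All other members compared stayed within 2-fold in each step. With a mitochondrial limit of 10%, 2 members were higher and 9 lower past 2-fold in NoPP against JEJ, and 4 higher and 10 lower in IPP against NoPP. Each region's enterocyte-like cells formed clusters of their own, the mitochondrial limit removed unequal parts of the libraries, and the region cannot be told apart from the library.

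Lymphoid cells showed no such step in their medians. In T or innate lymphoid-like cells 0 members passed 2-fold in any step, against 1.24% higher and 1.37% lower of all features from DUOD to JEJ, 0.325% and 0.748% from JEJ to NoPP, and 0.561% and 0.165% for IPP against NoPP. With 58 or 59 members compared, 0 is near these background shares and does not set the members apart. Their medians were -0.07, -0.01 and 0.03, and 21 of 59, 28 of 58 and 37 of 59 members had a ratio above 1. In enterocyte-like cells the nuclear share thus ranged from 2.25% to 3.18% along the gut while in lymphoid cells of the same libraries it ranged from 1.70% to 1.76%.

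Across all barcodes of at least 1000 UMIs, the nuclear share peaked below the mitochondrial limit and was lower in the bins next above it. In JEJ it was 2.95% where mitochondrial genes held 20 to 25% of UMIs, 2.16% at 25 to 40%, 1.05% at 40 to 60% and 0.65% at 60 to 80%. In DUOD the same bins held 2.19%, 1.61%, 0.72% and 0.43%, in IPP 1.87%, 1.59%, 1.12% and 0.54%, and in NoPP 1.69%, 1.38%, 0.81% and 0.34%. In each library the share thus fell from the 20 to 25% bin through the 60 to 80% bin. The ends did not follow that order: at 0 to 5% the share was 1.50%, 2.37%, 1.78% and 0.857% in DUOD, JEJ, IPP and NoPP, the first and last of them below the 25 to 40% bin, and at 80 to 100% it was 0.573%, 0.668%, 0.543% and 0.336%. Below the limit and within 1 class the slope was small and not of 1 direction. Enterocyte-like cells held 2.53% to 2.29% in DUOD between the 5 to 10% and the 20 to 25% bins, and 2.40% to 2.12% in IPP between the 10 to 15% and the 20 to 25% bins. In JEJ they held 2.94% at 0 to 5%, 3.31% at 10 to 15% and 3.145% at 20 to 25%. Lymphoid cells were highest at 5 to 10% in DUOD (1.815%) and NoPP (1.73%), and at 10 to 15% in JEJ (1.78%) and IPP (1.79%). Free RNA held 1.44%, 2.11%, 1.91% and 1.46% nuclear members in DUOD, JEJ, IPP and NoPP, with mitochondrial shares of 68.9%, 42.0%, 36.8% and 38.5%.

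**Figure D5:**
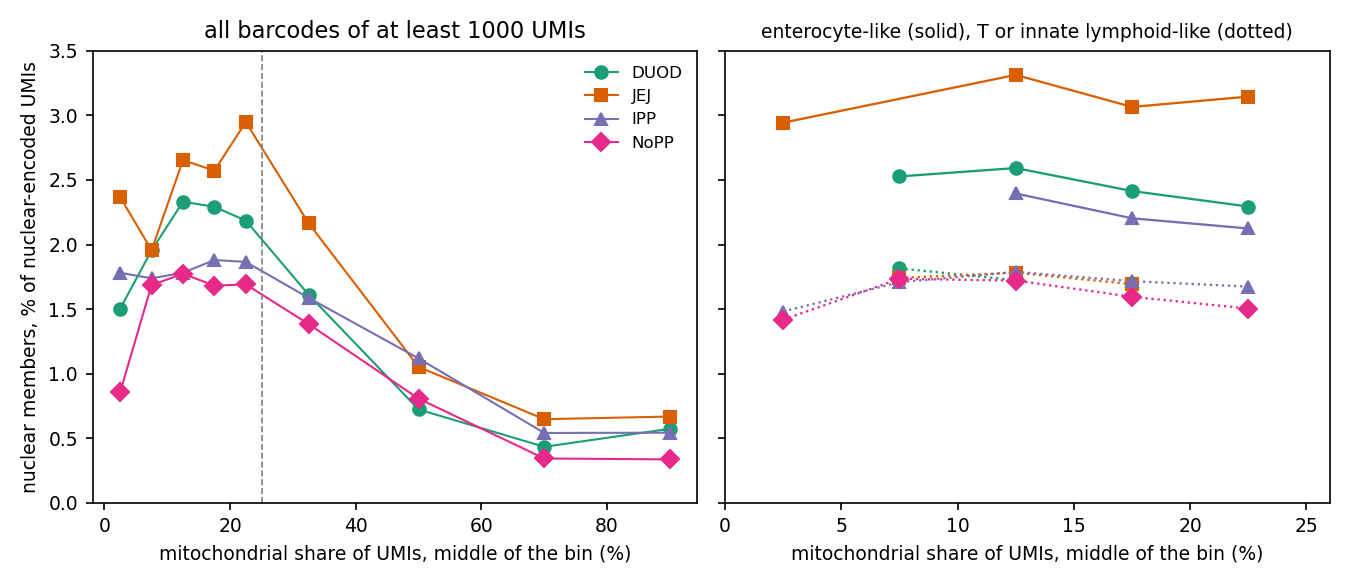
Nuclear members as percent of nuclear-encoded UMIs (vertical axis) against the mitochondrial share of a barcode's UMIs (bin middle, percent). Left, all barcodes of at least 1000 UMIs by library, with the 25% limit dashed: all 4 lines fall to between 0.34% and 0.65% at 60 to 80%; right, enterocyte-like (solid) and T or innate lymphoid-like cells (dotted) below the limit, where the enterocyte-like lines stay above the lymphoid ones.

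Other genes of mitochondrial metabolism were read from lists of related pathways, each count to be set against the shares of all features given above. In enterocyte-like against lymphoid cells, 14 of 16 citric acid cycle genes were higher and 0 lower (median 1.53, from OGDH with 2.46 to DLD with 0.74), as were 13 of 16 fatty acid oxidation genes (median 1.76, SLC25A20 3.05, ECHS1 1.40). Electron carriers CYCS (3.29) and CYC1 (1.59) and 5 of 7 carriers and porins rose too, led by the ADP/ATP carrier SLC25A5 (2.57) with the phosphate carrier SLC25A3 (0.90) as the weakest. Glycolysis was mixed, with 7 of 15 higher and 3 lower: LDHA rose by 1.67 and LDHB fell by 6.81. Of 29 assembly factors outside the name prefixes 6 were higher and 3 lower (SCO1 1.63, COX18 -1.38), and the other 20 did not pass, as with most assembly factors among the members.

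Genes that drive or process mitochondrial expression changed in both directions. Of 14 genes of mitochondrial biogenesis and DNA upkeep 3 were higher and 4 lower, with a median of -0.47. PPARGC1A, a coactivator of mitochondrial genes, rose by 7.03 (edgeR adjusted p = 3.1e-06), its relative PPARGC1B by 1.08 and the nuclear receptor ESRRA by 2.59, while TFAM, which packages mitochondrial DNA, fell by 1.29. Mitochondrial RNA processing gave 4 of 14 in each direction (FASTKD1 0.98, PRORP -2.37). Antioxidant genes gave 6 higher and 1 lower of 9 (PRDX5 3.87, GPX1 -1.08). All 12 proliferation genes tested were lower (NUSAP1 -1.91, TPX2 -8.76), and 9 of 13 dissociation and stress genes were higher (HMOX1 6.15, BNIP3 1.30). The part of stress or of division in the member differences was not tested.

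The same lists were read in the other two comparisons. Enteroendocrine-like cells had 9 of 16 citric acid cycle genes lower than enterocyte-like cells (SUCLG2 -0.97, DLST -2.33), 8 of 14 fatty acid oxidation genes (ECHS1 -0.81, ETFDH -2.21), 4 of 7 carriers and porins (VDAC1 -0.83, VDAC3 -1.22), 4 of 8 antioxidant genes (TXN2 -0.96, PRDX5 -1.71) and both CYC1 (-0.85) and CYCS (-1.03), with 0 higher in any of these lists. Glycolysis gave 3 higher and 5 lower of 13, with LDHB at 5.09 and LDHA at -1.67. ESRRA (-1.16) was the 1 of 3 biogenesis genes to pass, 0 of 4 RNA processing genes passed, ATPAF1 (2.13) and UQCC2 (0.93) were the 2 of 18 other assembly factors to rise, STMN1 (2.83) and HMGB2 (1.32) the proliferation genes, and 2 of 12 stress genes rose and 1 fell (DDIT3 0.82, HMOX1 -3.40).

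Dividing lymphoid cells had 7 of 16 citric acid cycle genes higher (MDH2 0.92, SUCLG1 0.37), 6 of 13 of fatty acid oxidation (ETFDH 1.23, ACADVL 0.53), 7 of 14 of glycolysis (PKM 1.09, ENO1 0.39) and both CYC1 (0.97) and CYCS (0.96), with 0 lower in these lists. SLC25A5 (0.55) was the 1 of 7 carriers and UQCC2 (0.60) the 1 of 17 other assembly factors to rise. LRPPRC (1.11), which stabilises mitochondrial messenger RNA, and TBRG4 (0.64) were among 3 of 9 mitochondrial RNA processing genes that rose, and 0 of 4 biogenesis genes passed. Antioxidant genes gave 2 higher and 1 lower of 8 (PRDX3 1.14, GPX4 -0.74), stress genes 1 higher and 6 lower of 9 (HSPH1 0.78, ATF3 -2.07), and all 12 proliferation genes were higher (UBE2C 7.90, TYMS 1.82), which is how the cells were named. PPARGC1A was too low to test in these comparisons.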

How the data were processed

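Raw UMI counts, 1 matrix per region, were used as deposited: per the file headers they are whole numbers for 25880 features and 6794880 listed barcodes, and per the submitters' processing notes Cell Ranger made them. Its settings and the genome build were not given in the sources used here. The members, gene lists and tests were chosen with earlier results of these data known.

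Kept barcodes had 1000 UMIs or more, 500 genes or more and no more than 25% mitochondrial UMIs. A barcode that another library held with at least 10 times the UMIs was removed, as were the highest doublet scores at 0.8% per 1000 cells, which took 4, 8, 86 and 35 barcodes in DUOD, JEJ, IPP and NoPP. An automatic doublet threshold was not used, and doublets may remain. Clustering used 2000 variable genes without the members, 30 principal components, 20 neighbours (15 for sub-clusters) and the Leiden method at resolution 1 (leidenalg 0.10.2). A class needed at least 3 detected markers. Choices made after the clusters were seen are the exclusion of sub-clusters led by genes of another class (193 DUOD and 218 JEJ lymphoid cells among them, and the HBB cluster), the minimum of 6 of 12 markers for dividing cells, and leaving an FCER1A and CST3 cluster unnamed.

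UMIs were summed per library and class with at least 10 cells. Class contrasts used edgeR 4.0.16 (quasi-likelihood test, TMM, filterByExpr, library as block, 8 sums per fit, Benjamini-Hochberg adjustment over all tested features, R 4.3.3), tested on simulated data. Counts of libraries with 1 direction and of values that do not overlap use plain CPM. Regions were compared by CPM ratios with exact Poisson intervals. Alternatives were DESeq2 1.42.0, no TMM, other filters, limits, scalings and resolutions, and leaving out each library. Genes named are all mitochondrial members, the 10 largest and 5 smallest log2 fold changes among nuclear members that passed, members past 2-fold between regions, the top subunit of each complex, isoform groups, assembly factors and ATP5IF1 that passed, and the largest and smallest change of each pathway list, plus CYC1, CYCS and PPARGC1A; 1 of these genes is not reported here. Symbols were used as the files give them, and those of the gene name table entered as an alternative.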

Additional observations from a re-analysis of the deposited data

Results flagged for a closer look

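Signal was present in barcodes outside the comparisons. Barcodes with at least 1000 UMIs and 500 genes but over 25% mitochondrial UMIs held nuclear members at 1.26%, 1.38%, 1.28% and 1.11% of nuclear-encoded UMIs in DUOD, JEJ, IPP and NoPP, below the T or innate lymphoid-like level of each library.

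Features whose symbol in the files is a bare identifier, and which the gene name table calls by a member prefix, were not members by the rule but were well measured. In the final cells UQCR11 had 10639 UMIs, NDUFA2 10353, UQCRFS1 7542, NDUFA5 5946, NDUFB5 5919, NDUFA4 5831, NDUFAB1 5507, NDUFB1 5004 and SDHA 4213. Complex II and III counts above therefore lack SDHA, UQCRFS1 and UQCR11.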

How the results depend on the processing

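No paired analysis was possible because, beyond the library block that pairs the classes in each fit, the matrices pool the titles of a region and their barcodes carry no replicate numbers. Of 1530 repeats for the 82 named gene results, 1336 kept direction and side of the threshold, 171 kept the direction alone and 23 turned. Region counts have counting error only, and classes of 10 to 50 cells in a library limit the calls in enteroendocrine-like and dividing cells. The cause of the changes below was not tested.

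Without TMM, NDUFA1 (-0.06) and ATP5F1E (-0.01) turned in enterocyte-like against lymphoid cells, where 31 nuclear members were higher and 9 lower and 4 mitochondrial ones higher and 1 lower. Enteroendocrine-like cells then had 15 nuclear members lower, and dividing cells 0 nuclear and 0 mitochondrial members lower.

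A mitochondrial limit of 10% turned these log2 fold changes of enterocyte-like against lymphoid cells: ATP6 -0.55, COX2 -0.63, COX3 -0.60, CYTB -1.33, ND1 -0.78, ND2 -1.18, ND3 -1.22, ND4 -1.35, ND4L -0.17 and ND5 -1.01. In enteroendocrine-like against enterocyte-like cells it turned ATP6 0.65, COX1 0.25, COX2 0.98, COX3 0.62, CYTB 1.25, ND1 0.68, ND2 1.04, ND3 1.27, ND4 1.15, ND4L 0.03 and ND5 1.17. The mean log2 ratios of the mitochondrial share were -1.11 and 0.64 for these contrasts. With this limit 1 nuclear member was lower, 0 mitochondrial members higher and 8 lower in the first contrast. In the second, 0 nuclear members were higher and 14 lower, and 3 mitochondrial members higher and 0 lower. Dividing cells had 19 nuclear members higher and 0 mitochondrial ones lower. Enterocyte-like regions gave 2 members higher and 9 lower for NoPP against JEJ, and 4 higher and 10 lower for IPP against NoPP, past 2-fold.

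A limit of 40% gave a mitochondrial share ratio of 0.67 for enterocyte-like over lymphoid cells, 1 nuclear member higher in enteroendocrine-like cells and 0 mitochondrial members lower in dividing cells. A mean over cells gave 0.31 for the first of these.

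In dividing cells the nuclear share ratio was 0.27 with at least 2000 UMIs and 0.22 without ribosomal and the 10 highest genes. Nuclear members lower were 0 with DESeq2, 7 without a filter on low counts, 6 with at least 2000 UMIs and 5 with no doublets left out. Mitochondrial members lower were 0 with DESeq2, 5 without the filter, 0 with at least 500 UMIs, 1 with shared barcodes kept, and 7 and 1 at Leiden resolutions 0.5 and 2. Without the filter, 1 nuclear member was higher in enteroendocrine-like cells.

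Leaving out 1 library at a time gave 1 to 2 nuclear members lower in enterocyte-like against lymphoid cells, 0 to 3 higher and 16 to 29 lower in enteroendocrine-like cells, and 14 to 27 higher and 0 to 3 lower in dividing cells, with 0 to 3 mitochondrial members lower there.

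Between regions, a 1.5-fold threshold gave 19 members higher from DUOD to JEJ, 1 higher and 12 lower for NoPP against JEJ and 6 lower for IPP against NoPP in enterocyte-like cells. A mean of the cells' CPM gave 1 higher from DUOD to JEJ. For NoPP against JEJ, no minimum of 50 CPM gave 5 lower, and CPM without ribosomal and the 10 highest genes 0. In lymphoid cells no minimum gave 1 lower from DUOD to JEJ and 1 higher for NoPP against JEJ.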

Other observations

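A cluster of 79 cells that stayed unnamed, led by SPAI-2, PIGR and OLFM4, the last a marker of crypt epithelium, held 2.79% nuclear members in JEJ (33 cells), 2.34% in IPP (20 cells) and 2.31% in NoPP (24 cells), with mitochondrial shares of 12.4%, 15.2% and 12.5%. Its nuclear shares lay below the enterocyte-like value of JEJ and NoPP and above that of IPP, and above goblet-like and enteroendocrine-like cells in each of these libraries. Another unnamed cluster, led in part by XCL1, held 1.91%, 2.16%, 1.90% and 1.86% in DUOD, JEJ, IPP and NoPP, over the T or innate lymphoid-like level of each. Lymphoid sub-clusters that carried enterocyte, goblet or red cell genes and were left out of the class held 1.70% in DUOD and 1.71% in JEJ, near the class values of 1.76% and 1.74%, and 1.50% in IPP (16 cells) and 1.05% in NoPP (25 cells), below the class values of 1.74% and 1.70%.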
